A study of Homo sapiens with 42 samples.

Results

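The glycolysis and hypoxia set holds 36 genes, picked by symbol from each expression table, of which that of Reh holds 57820 gene identifiers. It comprises 2 glucose transporters, 15 glycolytic enzymes, 6 genes that set the fate of pyruvate or the flux through the pathway, 3 genes of oxygen sensing, 2 genes of mitophagy and 8 other targets of the hypoxia-inducible factor (HIF). All 36 symbols were found in the table of every line. RNA was sequenced from 42 samples of 5 established human leukaemia lines, all B-cell acute lymphoblastic leukaemia, each with 3 arms. Reh and 697 carried an empty vector (EV), added wild-type NSD2 (WT) or added NSD2 with the E1099K change (EK). An arm had 2 replicates in Reh and 3 in 697. RS411, RCH and SEM carried a non-targeting control (NT) or the short hairpin RNAs named sh2 and sh5, with 3 replicates per arm. The design text describes sh2 as an NSD2 knockdown, and sh5 is known here from the sample names. NSD2 is a methyltransferase that places the H3K36me2 mark on histones. All lines grew in one medium, and no drug or oxygen treatment is recorded. The sources used here do not say whether an engineered line was 1 clone or whether replicates were separate cultures, so a p-value here reflects no more than sample-to-sample spread, part of which may be technical.

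Glycolysis converts glucose to pyruvate, which lactate dehydrogenase turns to lactate or the mitochondria oxidise. In oxygenated cells the prolyl hydroxylases encoded by EGLN1 and EGLN3 mark the HIF alpha subunits for destruction, so HIF activity is set mainly at the level of protein stability and not of the HIF1A transcript. When oxygen falls, stabilised HIF binds a short core sequence near its targets and raises glucose transporters, most glycolytic enzymes, the pyruvate dehydrogenase kinase PDK1, the mitophagy receptor BNIP3 and the secreted factor VEGFA.

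Promoters of 5 genes are shown because the results below turn on these genes. PFKFB4 and BNIP3 differed strongly between replicate numbers, and EGLN1, PGK1 and P4HA2 were lower in SEM with both hairpins. Each sequence is the 250 bases before a RefSeq start on GRCh38.p14, read 5′ to 3′ on the strand of the gene. Capitals mark each match to ACGTG or GCGTG, the HIF core, on either strand, and a CACGTG counts once on each strand. The windows lie at chr3:48556804-48557053 (minus strand) for PFKFB4, chr10:131981924-131982173 (minus) for BNIP3, chr1:231422288-231422537 (minus) for EGLN1, chrX:78103998-78104247 (plus) for PGK1 and chr5:132227092-132227341 (minus) for P4HA2.
PFKFB4: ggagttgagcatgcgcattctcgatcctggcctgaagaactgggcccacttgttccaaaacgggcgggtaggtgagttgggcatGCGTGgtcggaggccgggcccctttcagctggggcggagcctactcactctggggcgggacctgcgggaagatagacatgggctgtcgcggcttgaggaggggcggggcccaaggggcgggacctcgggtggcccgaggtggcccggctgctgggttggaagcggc
BNIP3: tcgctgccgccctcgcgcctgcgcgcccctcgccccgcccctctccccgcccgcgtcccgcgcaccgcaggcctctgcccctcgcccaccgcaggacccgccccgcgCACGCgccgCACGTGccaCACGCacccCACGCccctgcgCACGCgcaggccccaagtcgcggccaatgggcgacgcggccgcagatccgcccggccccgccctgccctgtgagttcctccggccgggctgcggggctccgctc
EGLN1: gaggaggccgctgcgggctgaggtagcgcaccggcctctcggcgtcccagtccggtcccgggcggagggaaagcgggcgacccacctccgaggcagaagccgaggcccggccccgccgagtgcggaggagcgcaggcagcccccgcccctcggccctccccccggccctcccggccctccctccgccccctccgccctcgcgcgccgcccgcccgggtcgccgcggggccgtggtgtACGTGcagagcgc
PGK1: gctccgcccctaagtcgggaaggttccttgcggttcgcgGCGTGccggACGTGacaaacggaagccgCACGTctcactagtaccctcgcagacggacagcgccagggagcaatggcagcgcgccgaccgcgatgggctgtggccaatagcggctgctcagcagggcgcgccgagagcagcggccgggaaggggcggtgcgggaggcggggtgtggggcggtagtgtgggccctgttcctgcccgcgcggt
P4HA2: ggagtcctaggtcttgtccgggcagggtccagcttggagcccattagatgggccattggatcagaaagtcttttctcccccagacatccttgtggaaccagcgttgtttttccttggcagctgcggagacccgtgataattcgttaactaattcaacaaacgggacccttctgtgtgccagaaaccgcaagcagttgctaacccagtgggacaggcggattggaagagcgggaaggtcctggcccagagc
The BNIP3 window held 6 matches, the PGK1 window 3, the PFKFB4 and EGLN1 windows 1 each and the P4HA2 window 0. RefSeq promoter entries matched 32 of the 36 genes, in 58 windows, and 34 of these windows (58.6%) held a match, against 43.2% of the 35116 windows in the table. Among genes with a single window the counts were 14 of 20, against 42.2% of all such genes. The single windows of SLC2A1 and PGAM1, like that of P4HA2, held 0 matches. A match is a run of letters, and its absence from a window says nothing about binding elsewhere.

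NSD2 itself was measured in every library. In Reh it lay at 576 and 579.9 CPM (reads of the gene relative to all reads of the library, scaled by TMM factors) with EV, 1745 and 1636 with WT and 1829.9 and 1531 with EK. In 697 it rose by 3.26 with WT and 3.14 with EK on the log2 scale, and in SEM it fell by 0.99 with sh2 and by 1.28 with sh5. In RS411 and RCH every knockdown library was below every NT library, but the log2 fold changes of NSD2 of -0.71 to -0.83 did not pass the test (adjusted p from 0.0952 to 0.508). Libraries held 21876505 to 67651596 reads. Summed B-lineage markers lay at 1354 to 2573 CPM, T and NK markers at 1.28 to 43.4, myeloid markers at 3.02 to 54.9 and erythroid markers at 0 to 0.0940. CD3D, CD3E, CD3G, CD14 and HBB were under 1 CPM on average in every line. In SEM the B-lineage sum was 1609 to 1756 CPM with NT, 1374 to 1411 with sh2 and 1354 to 1432 with sh5. With sh2 and sh5, 4 and 5 of its 8 genes were called lower, beside 14.4% and 10.2% of all genes. The SEM myeloid sum was 13.6 to 20.5 CPM with NT, 32.8 to 47.9 with sh2 and 41.8 to 54.9 with sh5. Of the 2 genes tested, 1 and 2 were called higher, where 27.9% and 21.3% of all genes were called in either direction. Of T and NK markers, 1 of 1 tested was called lower with sh2. The part of these shifts in the SEM results was not tested. In RNA from a whole culture, fewer cells of a kind and less RNA per cell cannot be told apart.

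GAPDH and ENO1 had the highest levels per exon length of the set in the control arm of every line. GAPDH, glyceraldehyde-phosphate dehydrogenase, lay at 1401 to 2492 CPM per kilobase, and ENO1, the ubiquitous enolase, at 1068 to 1863. GAPDH, PGK1, PGAM1, ENO1, TPI1, LDHA and LDHB have near-identical processed copies elsewhere in the genome, so their levels are uncertain. Per length, ENO1 made up 98.04% or more of the enolase pair in each control arm, and ALDOA 68.7% to 88.1% of the pair of aldolases. Per length LDHB also exceeded LDHA in every control arm, LDHA holding 28.7% to 38.4% of the pair. This order depended on the division by length. In CPM LDHA was the higher in RCH (1248 against 1171) and SEM (1111 against 943), and LDHB in Reh, 697 and RS411. The hexokinases differed between lines: HK2, the HIF-responsive form, held 77.2% ± 7.26 (SD, n = 3) of the pair in 697 and 35.5% ± 13.1 (SD, n = 3) in RCH. PFKFB4, which makes the glycolytic activator fructose 2,6-bisphosphate, held 75.4% ± 13.7 (SD, n = 3) of the pair with PFKFB3 in RCH and 44.1% ± 21.6 (SD, n = 2) in Reh.

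Several HIF targets were near 0 in 1 or more lines. BNIP3 lay at 0.0316 to 0.520 CPM in RS411, too low to test, against 34.6 to 179 in Reh, 36.1 to 287 in RCH and 79.2 to 149 in SEM. BNIP3L, a related mitophagy receptor, lay at 62.9 to 100.13 CPM in RS411. EGLN3 stayed under 1 CPM in Reh, RS411 and RCH and lay at 0.895 to 2.80 CPM in SEM. In 697 EGLN3 was at 10.1, 309.6 and 14.8 normalized counts with EK, so its level in that arm rests on replicate 2, and at 8.37 to 27.1 in the other 2 arms. P4HA2, a subunit of the collagen prolyl hydroxylase, lay at 0.158 to 1.48 CPM in SEM and 54.2 to 179 in RCH. ADM, the vasodilator adrenomedullin, averaged 0.105 CPM in the control arm of 697, where it was too low to test, 0.782 in SEM, 1.14 in RS411, 1.27 in RCH and 34 in Reh.

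Among the 10 comparisons with a control arm, tested without a replicate block, genes of the set were called only in SEM (edgeR's quasi-likelihood test, or limma in 697, adjusted p under 0.05 over all genes). A fit blocked on replicate number also called genes in RS411, RCH, 697 and Reh, as given for each line. With sh2, 9 of 36 were called, 7 lower and 2 higher, where 27.9% of all genes were called and 14.4% were called lower. With sh5, 5 of 36 were called, all lower, where 21.3% of all genes were called and 10.2% were called lower. In either direction 25% and 13.9% of the set were called, smaller shares than of all genes, while the shares called lower were larger than those of all genes. These differences in share were not tested. The median log2 fold change of the 36 genes was -0.13 with sh2 and -0.16 with sh5, against 0.0057 and -0.0074 over all genes. Both hairpins were set against the same NT libraries.

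All 3 genes of oxygen sensing were called lower with sh2, and 1 of 3 with sh5. HIF1A lay at 195, 203 and 183 CPM in NT, 161, 164 and 158 with sh2 and 183, 195 and 180.4 with sh5. Every sh2 library was below every NT library, whereas the sh5 libraries overlapped NT. HIF1A fell with sh2 by 0.27 (SE 0.055, adjusted p = 0.00166) on the log2 scale, and its log2 fold change with sh5 was -0.06 (SE 0.055, adjusted p = 0.527). EGLN1, the main oxygen-sensing hydroxylase, lay at 168, 158 and 184 CPM in NT, 139, 133 and 151 with sh2 and 139, 134 and 152 with sh5. Neither hairpin overlapped NT: EGLN1 fell by 0.27 (SE 0.070, adjusted p = 0.00875) with sh2 and by 0.26 (SE 0.070, adjusted p = 0.0142) with sh5. EGLN3, a HIF-induced hydroxylase, lay at 2.70, 2.20 and 2.80 CPM in NT, 0.895, 1.47 and 1.26 with sh2 and 1.53, 1.55 and 2.46 with sh5. Only sh2 was without overlap, and EGLN3 fell there by 1.09 (SE 0.24, adjusted p = 0.00276). EGLN3 had 82 to 105 reads per NT library.

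Of the 8 other HIF targets, MXI1 and P4HA2 were called lower with both hairpins. MXI1, an antagonist of MYC, lay at 46.5, 58.8 and 58.9 CPM in NT, 32.8, 43.3 and 41 with sh2 and 33.4, 32.1 and 41.6 with sh5. No knockdown library reached the lowest NT library, and MXI1 fell by 0.49 (SE 0.13, adjusted p = 0.0186) with sh2 and 0.62 (SE 0.13, adjusted p = 0.00727) with sh5. P4HA2 lay at 1.48, 1.10 and 0.694 CPM in NT, 0.256, 0.219 and 0.577 with sh2 and 0.158, 0.187 and 0.502 with sh5. These are 26 to 51 reads per NT library and 6 to 22 per knockdown library, and P4HA2 fell by 1.61 (SE 0.44, adjusted p = 0.0133) with sh2 and 1.93 (SE 0.45, adjusted p = 0.00688) with sh5. VEGFA lay at 29.3, 33.4 and 45.9 CPM in NT, 23, 24.3 and 31.3 with sh2 and 20.1, 20.8 and 28.6 with sh5. It did not overlap NT with sh5, where the log2 fold change of VEGFA was -0.65 (SE 0.21, adjusted p = 0.0663).

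Of 15 glycolytic enzymes, 4 were called with sh2 and 2 with sh5. PGK1, which makes the first ATP of the pathway, lay at 1306, 1228 and 1473 CPM in NT, 1019, 1062 and 1195 with sh2 and 995, 994 and 1226 with sh5. No knockdown library reached NT, and PGK1 fell by 0.29 (SE 0.093, adjusted p = 0.0344) with sh2 and 0.32 (SE 0.093, adjusted p = 0.0285) with sh5. The pyruvate kinase PKM lay at 2179, 2039 and 2485 CPM in NT and 1825, 1873 and 1998 with sh2, and fell by 0.24 (SE 0.074, adjusted p = 0.0277). ENO1 lay at 3427, 3333 and 3899 CPM in NT and 2717, 2901 and 3322 with sh5, and fell by 0.25 (SE 0.077, adjusted p = 0.0275). Both were lower without overlap. PFKP and PFKL, subunits of phosphofructokinase, were the 2 genes that rose with sh2, PFKP by 0.31 (SE 0.10, adjusted p = 0.036) and PFKL by 0.16 (SE 0.058, adjusted p = 0.0493). Neither transporter, none of the 6 genes of pyruvate fate and neither mitophagy gene was called.

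Some of these calls rest on single libraries. The calls of HIF1A and EGLN3 with sh2 and of P4HA2 and MXI1 with sh5 held when each of 6 libraries was left out in turn, with an adjusted p of 0.00139 to 0.0116 for HIF1A. With sh2, EGLN1 was lost without sh2 replicate 2 (adjusted p = 0.052), and MXI1 without NT replicate 2 or 3 (up to 0.0792). P4HA2 was lost without NT replicate 1 or sh2 replicate 1 or 2 (up to 0.0569), and PKM without NT replicate 3 or sh2 replicate 1 or 2 (up to 0.166). PGK1 was lost in 4 of 6 cases (NT replicate 1 or 3, sh2 replicate 1 or 2), PFKP in 4 (NT replicate 1 or 2, sh2 replicate 1 or 3) and PFKL in all 6, and also with RLE factors or with the NT and sh2 arms alone. With sh5, EGLN1 and ENO1 were lost without NT replicate 3 or sh5 replicate 1 or 2, and PGK1 also without NT replicate 1, with adjusted p up to 0.146.

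**Figure D1:**
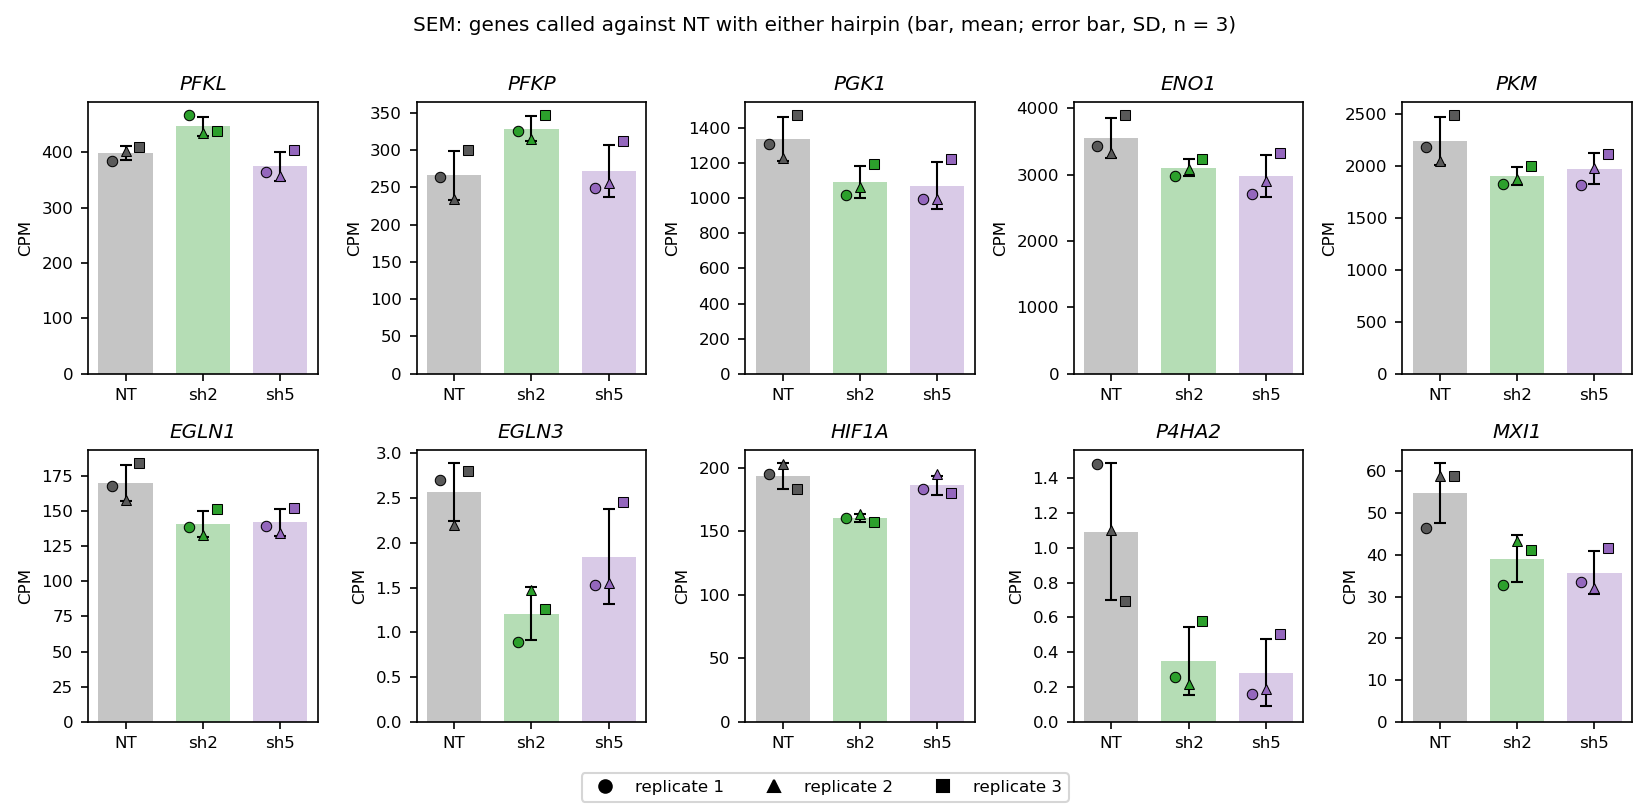
CPM of the 10 genes called against NT in SEM with either hairpin, on linear axes from 0. Bars are means, error bars SD (n = 3) and symbols single libraries by replicate number; HIF1A is lower in the 3 sh2 libraries alone, and EGLN1, MXI1, PGK1 and P4HA2 are lower with both hairpins.

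Same-numbered SEM libraries deviated together, and with the replicate number as a block more genes passed. With sh2 22 of 36 were called, 17 lower and 5 higher, where 37.9% of all genes were called and 18.5% were called lower. With sh5 18 of 36 were called, 17 of them lower, where 32.8% were called and 15.1% were called lower. In this fit VEGFA fell by 0.46 with sh2 and 0.64 with sh5, LDHA by 0.23 and 0.22, and PDK1, which holds pyruvate back from the mitochondria, by 0.18 and 0.15 on the log2 scale. PFKFB4 fell by 0.39 and 0.79 and BNIP3 by 0.21 and 0.22. ENO2, the neuronal enolase, rose by 0.52 and 0.28. SLC2A1, the main glucose transporter, was not called, at -0.04 (SE 0.056, adjusted p = 0.596) with sh2 and -0.15 (SE 0.056, adjusted p = 0.0565) with sh5.

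In RS411 none of the 34 genes tested was called by edgeR, where 1.67% of all genes were called with sh2 and 0.478% with sh5. At an unadjusted p under 0.05, 11 passed with sh2 and 3 with sh5, counts that were not compared with all genes. DESeq2 called 5 and 1 of the set, where it called 954 and 307 genes in all. VEGFA lay at 48.8, 45.3 and 48.7 CPM in NT, 25.5, 15.5 and 29.4 with sh2 and 46.9, 34.2 and 51.8 with sh5. All sh2 libraries were below NT, the log2 fold change of VEGFA being -1.01 (SE 0.22, adjusted p = 0.0631). ENO1 lay at 2369.8, 2698 and 2636 CPM in NT and 1989.6, 1828 and 2217 with sh2, a log2 fold change of -0.35 (SE 0.084, adjusted p = 0.0575). TPI1, triosephosphate isomerase, lay at 821, 914 and 906 CPM in NT and 683, 542 and 738 with sh2, a log2 fold change of -0.43 (SE 0.10, adjusted p = 0.0602). Neither overlapped NT. Without sh2 replicate 3, 6 of the set were called, and 1560 genes in all against 286 with every library.

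The replicate numbers paired the RS411 libraries too. With the block 15 of 34 genes were called with sh2, 14 lower and 1 higher, where 14.5% of all genes were called and 6.83% were called lower. The 14 held 9 of 15 glycolytic enzymes, among them ALDOA, TPI1, PGK1, ENO1 and PKM. VEGFA fell by 1.05 (SE 0.14, adjusted p = 0.00399), LDHA by 0.42 (SE 0.058, adjusted p = 4.09e-04) and PDK1 by 0.40 (SE 0.067, adjusted p = 0.00143) on the log2 scale. ENO2 rose by 1.23 (SE 0.29, adjusted p = 0.0166). With sh5 the blocked fit called 2 of 34, both higher, where 5.41% of all genes were called. HIF1A lay at 176, 197 and 179 CPM in NT, 183, 188 and 197 with sh2 and 217, 259 and 216 with sh5. Its sh5 libraries did not overlap NT, and HIF1A rose with sh5 by 0.32 (SE 0.058, adjusted p = 0.00421). ENO2 lay at 2.05, 1.02 and 1.31 CPM in NT and 4.36, 2.15 and 4.07 with sh5 and rose by 1.31 (SE 0.29, adjusted p = 0.0257). P4HA2 lay at 32.2, 31.6 and 29.4 CPM in NT and 26.5, 20.1 and 28.9 with sh5, without overlap, and was not called in either fit. The median log2 fold change of the 34 genes without the block was -0.20 with sh2 and 0.02 with sh5, against -0.0028 and -0.016 over all genes.

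In RCH none of the 35 genes tested was called by edgeR, where 1.37% of all genes were called with sh2 and 0.0229% with sh5. At an unadjusted p under 0.05, 6 passed with sh2 and 0 with sh5, not compared with all genes. DESeq2 called 0 with each. ADM lay at 2.30, 0.438 and 1.06 CPM in NT, 16.9, 2.90 and 4.95 with sh2 and 6.91, 1.42 and 2.96 with sh5. The sh2 libraries were above NT, at a log2 fold change of 2.68 (SE 0.81, adjusted p = 0.131), and the sh5 libraries overlapped NT. HIF1A lay at 179, 188 and 152 CPM in NT, 203, 278 and 263 with sh2 and 254, 189.7 and 186 with sh5. It too was above NT in the 3 sh2 libraries, at a log2 fold change of 0.52 (SE 0.17, adjusted p = 0.149). LDHB lay at 1110.2, 1285 and 1117 CPM in NT and 721, 867 and 887 with sh2, at -0.50 (SE 0.17, adjusted p = 0.164). TPI1 lay at 1307, 1019 and 729 CPM in NT and 754, 794 and 743 with sh5 and overlapped. The numbers paired the libraries for sh5 but not for sh2, and with the block ADM rose with sh5 by 1.57 (SE 0.23, adjusted p = 0.0314), the single call among 35, where 0.263% of all genes were called. The log2 fold change with sh5 was below 0 for 32 of 35 genes without the block, a count not compared with the share of all genes. Its median was -0.24, against -0.0049 over all genes. The NT arm was uneven for some genes of the set, with BNIP3 at 134 CPM (SD 133, n = 3) and PFKFB4 at 225 (SD 273, n = 3). HIF1A lay there at 173 CPM (SD 19, n = 3). The part of this spread in the median was not tested.

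With added NSD2 in Reh none of the 35 genes tested was called by edgeR, where 0.219% of all genes were called with WT and 0.213% with EK. At an unadjusted p under 0.05, 0 passed with WT and 1 with EK, and DESeq2 called 0 with each. GPI, glucose-6-phosphate isomerase, lay at 137 and 129.9 CPM with EV, 144 and 143 with WT and 194 and 153 with EK. Neither arm overlapped EV, at log2 fold changes of 0.11 (SE 0.13, adjusted p = 1) and 0.38 (SE 0.13, adjusted p = 0.624). PFKM, the muscle phosphofructokinase, lay at 138 and 149 CPM with EV and 181 and 159 with EK. LDHB lay at 971 and 931 CPM with EV and 1306 and 945 with EK, which overlapped. VEGFA, at 62.5 and 79.4 CPM with EV and 72.6 and 84.1 with WT, overlapped as well. So did SLC2A3, the high-affinity transporter, at 26.2 and 38.2 CPM with EV and 31.8 and 40.4 with WT. With the replicate number as a block, from 2 pairs only, 1 of 35 genes was called with WT and 6 with EK. The 1 with WT was higher, and of the 6 with EK 5 were lower. Of all 15972 genes, 629 were called with WT and 1027 with EK in this fit.

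In 697 none of the 35 genes tested was called by limma on log2 normalized counts, where 0.19% of all genes were called with WT and 0.172% with EK. At an unadjusted p under 0.05, 6 passed with WT and 9 with EK, not compared with all genes. The edgeR test on recovered reads called 0 with each. The log2 fold change was below 0 for 34 of 35 genes with WT (median -0.23) and for 33 with EK (median -0.24), against 51.2% and 54.4% of all genes. Both arms were set against the same EV libraries. P4HA2 was at 333, 369.7 and 653 normalized counts with EV, 95, 203 and 329 with WT and 94.9, 235 and 321 with EK. ENO1 was at 165430.3, 156569 and 179192 with EV, 112505, 134385 and 149100.2 with WT and 126884, 115579 and 139374 with EK. Both genes were below EV in all 6 libraries. ANKRD37, a small HIF target, was at 254, 234 and 245 with EV and 193, 147 and 164 with EK, without overlap. TPI1 was at 26046, 24087 and 25587 with EV and 20385, 18388 and 20023 with EK, also without overlap. ALDOA was at 67711, 60125 and 69328 with EV and 47335, 52032 and 60781 with WT, where replicate 3 overlapped EV.

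The numbers paired the 697 libraries. With the block 2 of 35 genes were called with WT, where 1.08% of all genes were called, and 5 with EK, where 0.987% were called, all of them lower. P4HA2 fell by 1.22 (SE 0.20, adjusted p = 0.0179) with WT and 1.16 (SE 0.20, adjusted p = 0.0247) with EK, and ALDOC, the brain-type aldolase, by 0.67 (SE 0.10, adjusted p = 0.0125) and 0.58 (SE 0.10, adjusted p = 0.025). With EK HK1 fell by 0.72, BNIP3 by 0.61 and BNIP3L by 0.58 on the log2 scale.

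**Figure D2:**
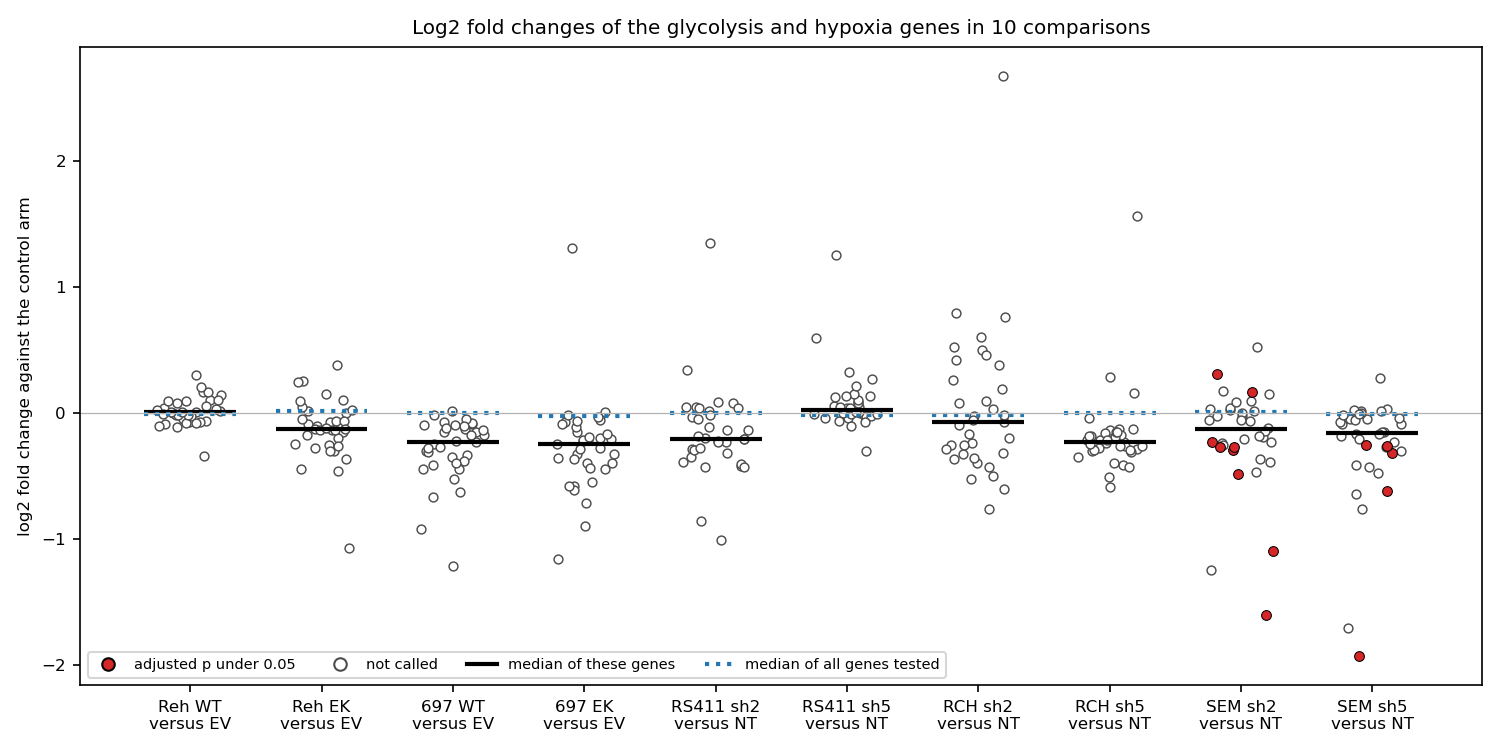
Log2 fold change of each tested gene of the set against the control arm (y axis) in 10 comparisons (x axis). Red points had an adjusted p under 0.05 without the block, black lines are medians of the set and dotted lines medians of all genes; red points occur in the 2 SEM comparisons, and the black line lies lowest in 697 with EK, at -0.24.

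A joint test of whether the hairpin effect differed between RS411, RCH and SEM called 1 of 36 genes with sh2, where 8.37% of all genes were called, and 0 with sh5, where 2.17% were called. With sh5, 0 genes of the set passed at an unadjusted p under 0.05 and DESeq2 called 0. The gene called was HIF1A (edgeR, adjusted p = 0.00456), with log2 fold changes with sh2 of 0.04 in RS411, 0.55 in RCH and -0.28 in SEM. It was called with each of 18 libraries left out, the adjusted p running from 2.84e-04 to 0.0174. With sh5 the adjusted p of HIF1A was 0.594. The numbers paired all 3 lines for sh5, and with the block 4 of 36 differed between lines (ADM, ENO2, MXI1 and SLC2A3), where 7.78% of all genes did. ADM then had an adjusted p of 9.80e-05, with log2 fold changes without the block of 0.59 in RS411, 1.58 in RCH and -1.71 in SEM.

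A wider list of 79 other genes of carbohydrate metabolism and the oxygen response had 56 to 65 genes tested per line. In SEM 18 of 63 were called with sh2 (11 higher, 7 lower) and 15 of 63 with sh5 (6 higher, 9 lower). These shares of 28.6% and 23.8% were close to the 27.9% and 21.3% of all genes called. The glycogen phosphorylases PYGL and PYGB rose with both hairpins, PYGL by 0.72 and 1.32 and PYGB by 0.46 and 0.35 on the log2 scale. The nuclear receptor RORA fell by 2.70 with sh2 and fell by 2.12 with sh5. EPAS1, which encodes the HIF2 alpha subunit, fell by 1.74 and 0.80, and the phosphoglucomutase gene PGM2 rose by 0.23 and 0.35. In RS411 with sh2 2 of 64 were called, where 1.67% of all genes were: GBE1, the glycogen branching enzyme, fell by 0.52 and PDK2 rose by 0.69. In the other 7 comparisons 0 were called by edgeR or limma. At an unadjusted p under 0.05, 2 to 15 passed, not compared with all genes. Where the replicate numbers paired, the block raised these counts except in RCH. It called 35 of 63 in SEM with sh2 (37.9% of all genes) and 32 of 63 with sh5 (32.8%). In RS411 it called 9 of 64 with sh2 (14.5%) and 6 of 64 with sh5 (5.41%), and in 697 3 of 62 with WT (1.08%) and 4 of 62 with EK (0.987%). In RCH with sh5 it called 0 of 65 (0.263%).

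Libraries with the same replicate number were high or low together across arms, although the labels do not say what a number marks. A test of the number across the 3 arms of a line called 31 of 35 genes in Reh, where 31.3% of all genes were called. It called 19 of 34 in RS411 (17.5% of all genes), 18 of 35 in RCH (2.37%) and 26 of 36 in SEM (10.7%). In 697 it called 20 of 35, beside 41.8% of all genes. The called genes were all highest in replicate 2 in Reh, in replicate 1 in RCH and in replicate 3 in SEM. In 697 17 of 20 were highest in replicate 3, and in RS411 12 were highest in replicate 3 and 7 in replicate 1. Both these counts and the background moved with the arms used. In RCH 0 genes of the set and 1 of 16403 genes in all were called without NT, 2 and 7 of 16697 without sh5, and 21 and 3643 of 17184 without sh2. In SEM 17 of the set and 294 of 16542 genes were called without sh2. In 697 14 of the set and 1437 of 16397 genes were called without EV, a far lower background than with all arms.

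**Figure D3:**
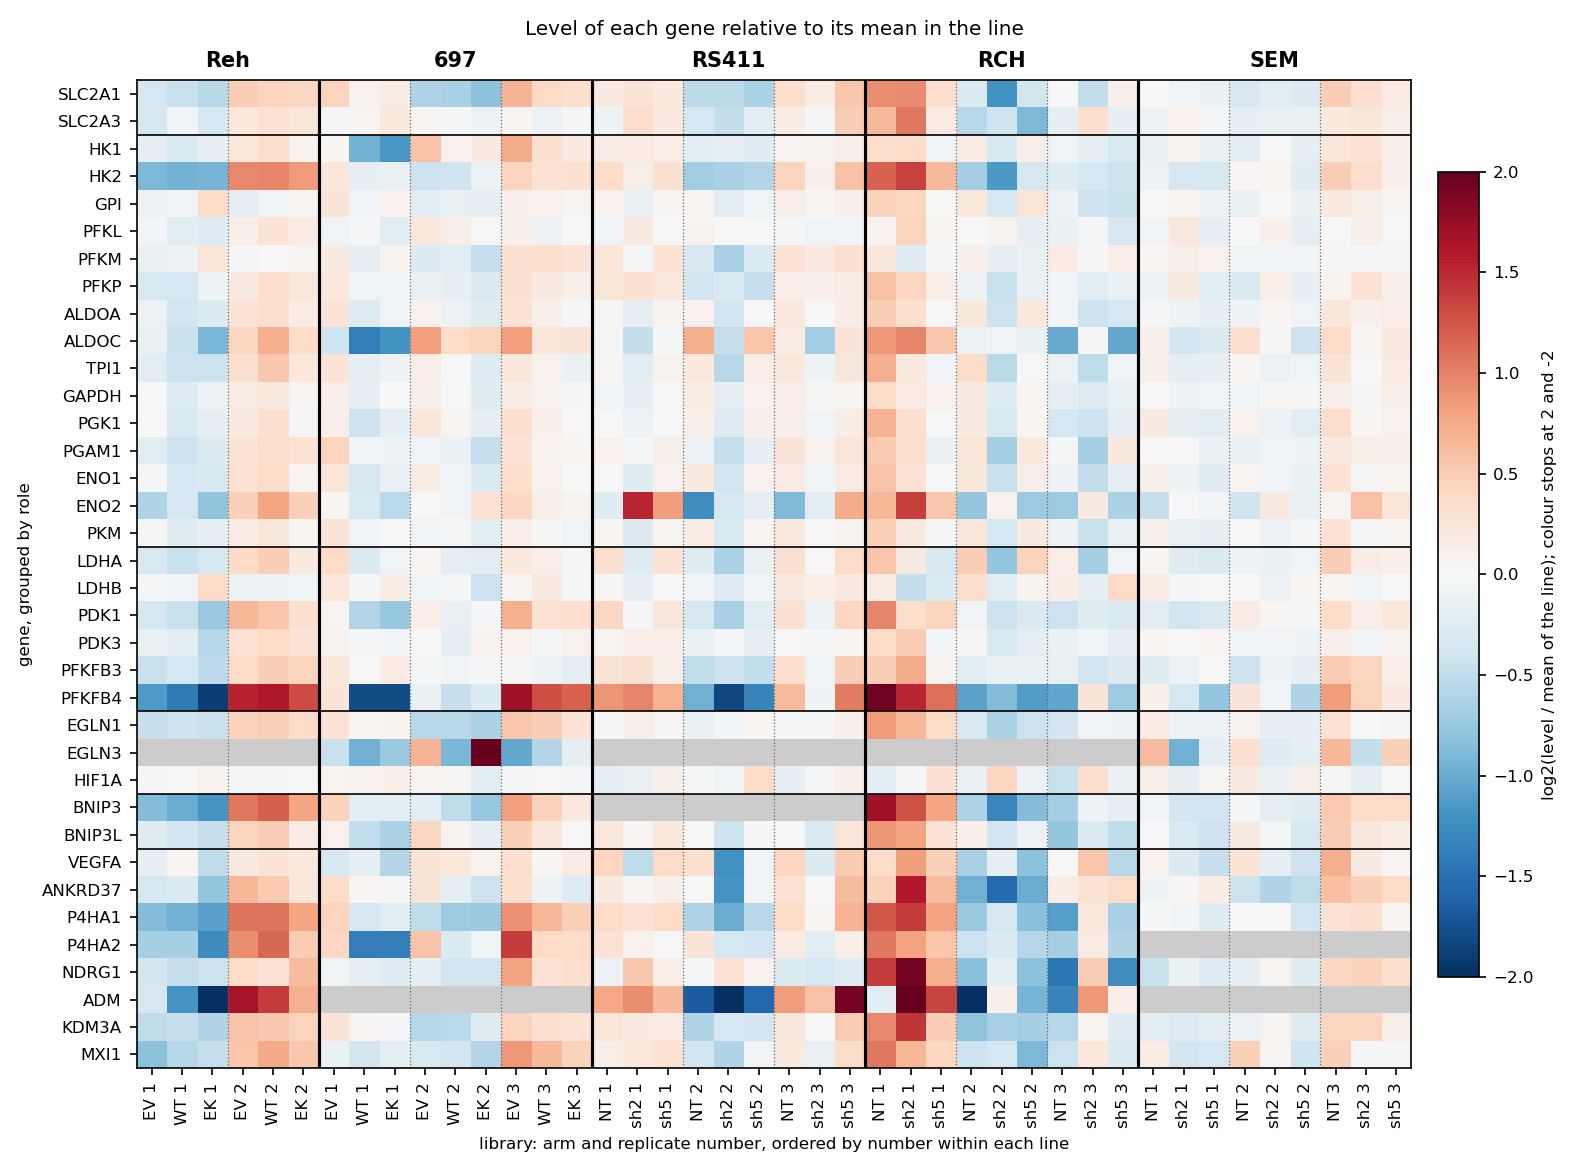
Log2 level of each gene (rows, by role) relative to its mean in the line, in all 42 libraries (columns, ordered by replicate number within a line). Grey marks a mean under 1 CPM, or under 10 normalized counts in 697; neighbouring columns of the same number share their colour, as in replicate 2 of Reh and replicate 1 of RCH.

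PFKFB4 had the largest fold between numbers in Reh, 697 and RCH. In Reh replicates 1 and 2 lay at 20.1 and 128 CPM with EV, 16.4 and 133 with WT and 11.8 and 108 with EK. Every library of replicate 2 was above every library of replicate 1, by 7.74-fold over the arms (edgeR, adjusted p = 2.12e-12). In RCH PFKFB4 lay at 539, 66.4 and 68.2 CPM in NT, 404, 76.3 and 167 with sh2 and 299, 64.2 and 84.4 with sh5, with replicate 1 highest in each arm (5.84-fold, adjusted p = 0.00861). In 697 it was at 1253, 946 and 3391 normalized counts with EV, 302, 762 and 2554 with WT and 303, 866 and 2367 with EK. Replicate 3 was highest there (5.62-fold, limma, adjusted p = 8.70e-04). ADM had the largest fold in RS411, 6.99-fold (adjusted p = 1.39e-04), and in SEM, 3.43-fold (adjusted p = 0.00186), from 4 to 56 reads per SEM library. The fold of PFKFB4 was 4.63 in RS411 (adjusted p = 0.0373) and 1.78 in SEM (adjusted p = 7.09e-09).

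BNIP3 was called in the 4 lines in which it could be tested. In Reh it lay at 42.9 and 163 CPM with EV, 39.2 and 179 with WT and 34.6 and 135 with EK, a 4.07-fold difference between numbers. In RCH it lay at 287, 58.3 and 56.4 CPM in NT, 218, 36.1 and 83.8 with sh2 and 154, 49.3 and 79 with sh5 (4.53-fold), and in SEM at 99.2, 101 and 149 in NT, 79.2, 90.9 and 133 with sh2 and 79.6, 87.8 and 135 with sh5 (1.63-fold). In each line 1 number was highest in all 3 arms. The transporter SLC2A1 lay in Reh at 74.3 and 132 CPM with EV, 68.7 and 127 with WT and 63.4 and 124 with EK. PDK1 lay there at 70.8 and 142 CPM with EV, 66 and 132 with WT and 53.6 and 111 with EK, and replicate 2 was above replicate 1 in every arm for both. SLC2A1 differed by 1.52-fold in SEM to 2.55-fold in RCH, PDK1 by 1.45-fold in SEM to 2.03-fold in Reh and HK2 by 1.48-fold in SEM to 3.61-fold in Reh.

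These genes were followed through the other lines. In RCH SLC2A1 lay at 100.37, 43.6 and 52.7 CPM in NT, 101, 22.8 and 37.5 with sh2 and 66.5, 40.9 and 56.5 with sh5. PDK1 lay there at 146, 70.6 and 55.3 CPM in NT, 94.8, 55 and 62.5 with sh2 and 101, 60.4 and 60.0 with sh5. VEGFA lay at 103, 50.7 and 78.7 CPM in NT, 141, 70.4 and 117 with sh2 and 110.4, 44.8 and 54 with sh5. For these 3 genes replicate 1 was the highest of each RCH arm. LDHA lay at 1387, 1328 and 1029 CPM in NT, 1062, 553 and 593 with sh2 and 755, 1278 and 899 with sh5, and no number was highest in all arms. In SEM, where replicate 3 was the highest of each arm for SLC2A1, PDK1 and LDHA, SLC2A1 lay at 124, 98.1 and 173 CPM in NT, 119, 105 and 156 with sh2 and 113, 102 and 138 with sh5. PDK1 lay there at 76.8, 100.01 and 115 CPM in NT, 68.8, 91.2 and 97.9 with sh2 and 72, 87.9 and 103 with sh5. LDHA lay at 1013, 924 and 1395 CPM in NT, 836, 897 and 1094 with sh2 and 818, 941 and 1084 with sh5. In RS411, where replicate 2 was the lowest of each arm for the same 3 genes, SLC2A1 lay at 61.4, 38 and 68.8 CPM in NT, 65.7, 37.7 and 60.4 with sh2 and 62.7, 35 and 80.1 with sh5. PDK1 lay there at 53.5, 32 and 49.7 CPM in NT, 39.1, 25.6 and 37.2 with sh2 and 47.2, 34.7 and 54 with sh5. LDHA lay at 879.7, 598 and 873 CPM in NT, 596, 458 and 704 with sh2 and 857, 639 and 925 with sh5. In 697 replicate 3 was the highest of each arm for SLC2A1, PDK1 and BNIP3. There SLC2A1 was at 4370.3, 2091 and 5154 normalized counts with EV, 3429, 2043 and 4223 with WT and 3567, 1818 and 4049.6 with EK. PDK1 was at 4835, 5087 and 7622 normalized counts with EV, 3103, 4208 and 5662 with WT and 2759, 4592 and 5855 with EK. BNIP3 was at 2092, 1306 and 2696 normalized counts with EV, 1304, 1069 and 2095 with WT and 1309, 906 and 1745 with EK. No number was highest in all 697 arms for VEGFA and LDHA. VEGFA was at 2471, 3686 and 3899.8 normalized counts with EV, 2711, 3570.1 and 3148 with WT and 2049, 3226 and 3446 with EK. LDHA was at 68442, 53404 and 60404 normalized counts with EV, 42602, 45659 and 57060.4 with WT and 48895, 44970.4 and 51248 with EK. HIF1A was at 10449.7, 10304 and 9732 normalized counts with EV, 10540.3, 10186 and 10003 with WT and 10778, 8665 and 9887 with EK, highest in replicate 1 of each arm by a margin that was not called (limma, adjusted p = 0.358).

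SLC2A1, PDK1, HK2 and 7 others were called in all 5 lines: PFKFB4, BNIP3L, ENO2, the histone demethylase gene KDM3A, MXI1, NDRG1 and the collagen hydroxylase gene P4HA1. By role, 8 of 8 other HIF targets, both mitophagy genes and both transporters were called in RCH, against 3 of 15 glycolytic enzymes (HK2, ALDOC and ENO2). These RCH calls depended on the arms used, with 0 of 35 genes of the set called without NT and 2 without sh5. PFKP missed the threshold narrowly (edgeR, adjusted p = 0.0519). The median RCH fold was 1.45 (1.11 to 3.48) for the enzymes and 3.31 (2.16 to 5.04) for the other HIF targets. The split by role was smaller elsewhere: 13 of 15 enzymes and 8 of 8 other HIF targets were called in Reh, 11 of 15 and 7 of 8 in SEM, 8 of 15 and 6 of 7 in 697 and 7 of 15 and 5 of 8 in RS411. Among abundant enzymes GAPDH differed by 1.08-fold in 697 to 1.32-fold in RCH and was called in Reh alone. Over the lines ENO1 differed by 1.09-fold to 1.46-fold, PGK1 by 1.08-fold to 1.58-fold and TPI1 by 1.07-fold to 1.64-fold. Each of these 3 was called in 2 of 5 lines. LDHA lay in Reh at 592 and 963 CPM with EV, 537 and 1032 with WT and 584 and 828 with EK, a 1.64-fold difference, and was called in 3 of 5 lines. HIF1A was called in none, with folds of 1.03 to 1.11 and adjusted p from 0.138 to 0.847. In Reh HIF1A lay at 259.7 and 259 CPM with EV, 265 and 257 with WT and 276 and 260.1 with EK.

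**Figure D4:**
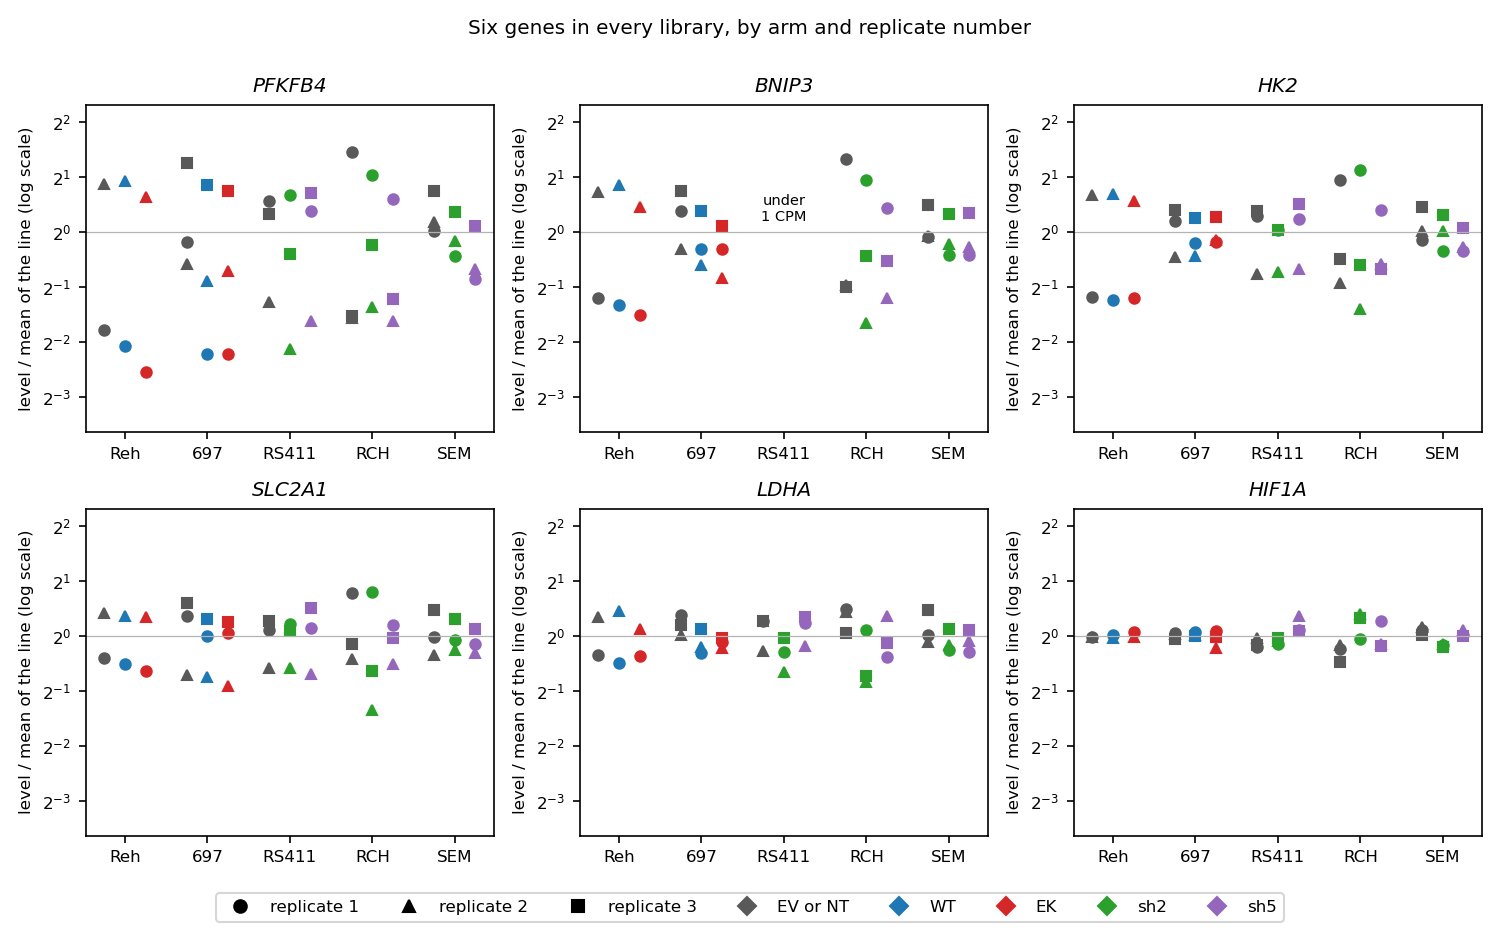
Level of 6 genes in each library relative to the mean of the line (log axis), by line, with colour for the arm and symbol for the replicate number; BNIP3 was under 1 CPM in RS411. In Reh the replicate 2 triangles lie above the replicate 1 circles for PFKFB4, BNIP3, HK2, SLC2A1 and LDHA in each arm, while HIF1A differed by 1.03-fold between the numbers.

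The median fold between numbers over the tested genes of the set was 1.64 in Reh, 1.38 in 697, 1.38 in RS411, 1.89 in RCH and 1.28 in SEM, against 1.14, 1.31, 1.18, 1.26 and 1.13 over all genes. The number took up a median of 95.6% of the spread within arms of these genes in Reh and 86.2% in RCH, against 69.4% and 45.7% over all genes. Read totals overlapped between the numbers in Reh, RCH and SEM, while replicate 1 was deeper than replicate 2 in every library of RS411 (40886215 to 67651596 reads against 31246713 to 37115685) and of 697 (48942916 to 57179806 against 43954735 to 47426286). Mitochondrially encoded genes took 0.334% to 0.621% of reads in replicate 2 of 697 and 0.202% to 0.275% in its other replicates. The part of depth and of mitochondrial reads in these differences was not tested.

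**Figure D5:**
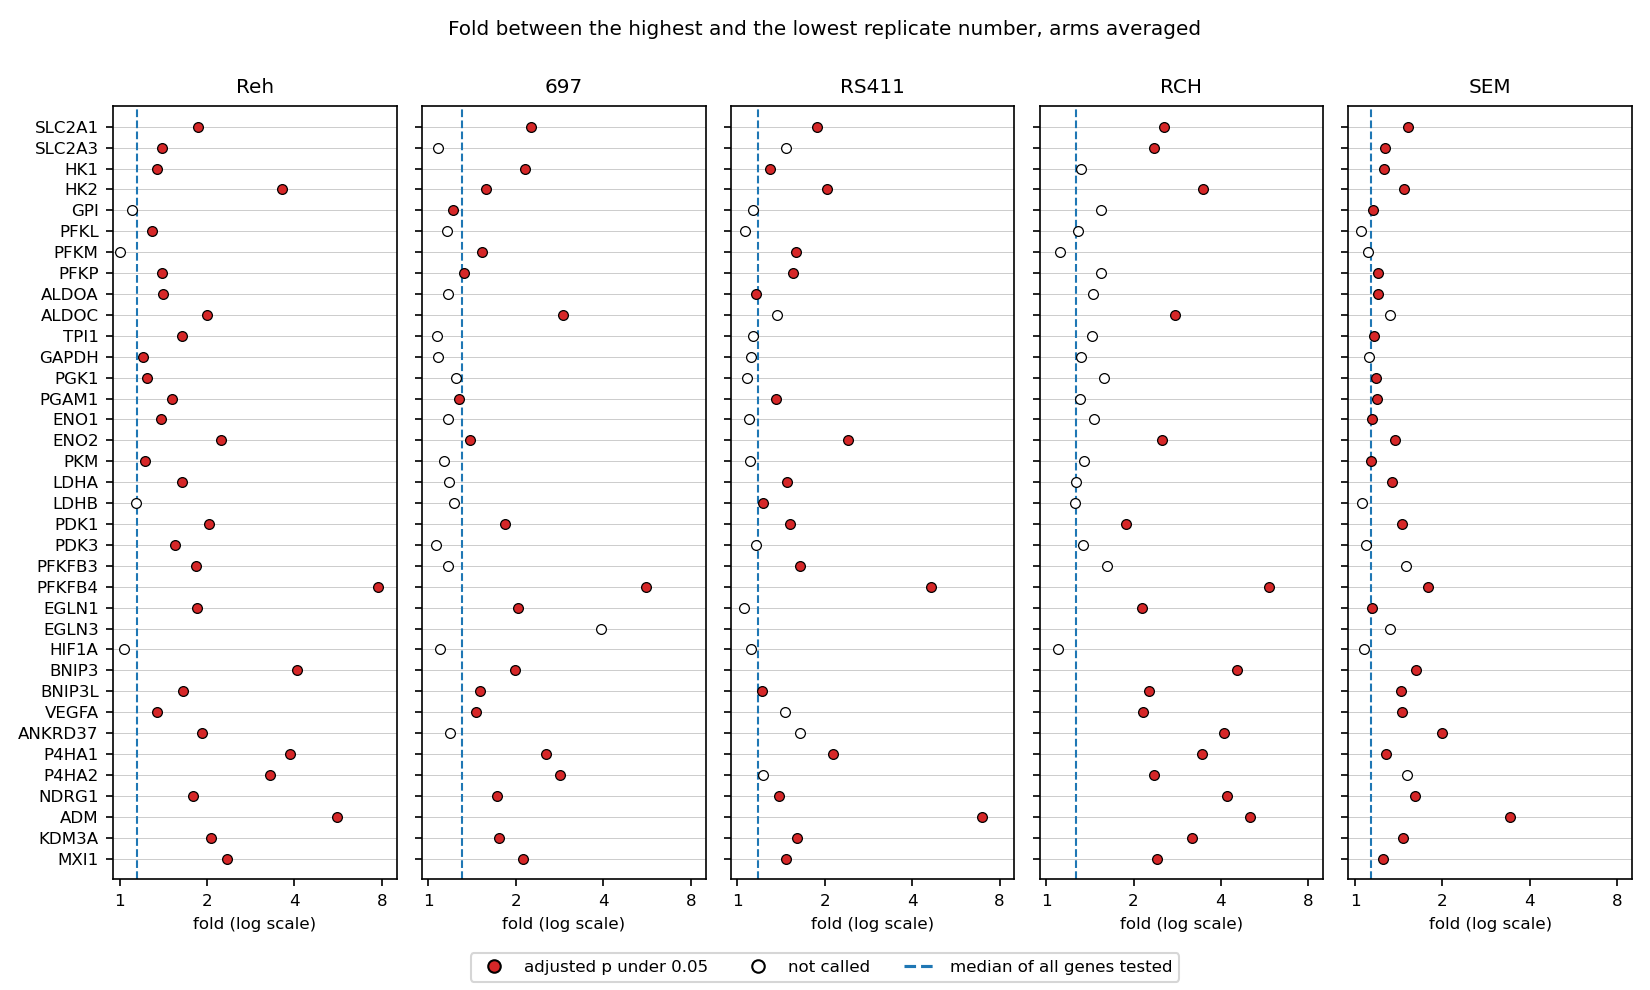
Fold between the highest and lowest replicate number, averaged over arms (x axis, log scale), for each tested gene (y axis) in each line. Red points had an adjusted p under 0.05 and dashed lines are medians of all genes, 1.13 in SEM to 1.31 in 697; PFKFB4 lies far right in Reh, 697, RS411 and RCH, and HIF1A is never red.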

How the data were processed

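The 42 libraries, from 5 B-cell leukaemia lines, were made from total RNA after removal of ribosomal RNA, per the labels' protocols. The submitters' processing notes name Trimmomatic, STAR, featureCounts and hg19, with versions not given in the sources used here. Raw counts of reads per gene were deposited for 4 lines (Reh, RCH, RS411, SEM). For 697 the authors deposited normalized counts, a signal divided by a size factor per library, and 100% of these values came out as whole reads (tolerance 0.001) in units of the smallest value of each library. In 3 of the 9 libraries that unit is close to 1, where whole reads cannot be told from rounded values, so the recovery is shown for 6 and the test on recovered reads is an alternative only.

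Counts were tested with edgeR 4.0.16 (TMM factors, low-count filter by arm, robust quasi-likelihood test, 3 arms of a line in one fit). The 697 values were tested with limma 3.58.1 on log2(normalized count + 1), keeping genes whose mean was at least 10, so fold changes of low genes there are understated. Both ran in R 4.3.3. Adjusted p-values are Benjamini-Hochberg values over all genes tested, and a gene was called at an adjusted p under 0.05. The difference between lines was tested as an interaction of line and arm in one edgeR fit. Levels are TMM-scaled CPM, and levels per kilobase use exon lengths of GENCODE v29 on another build than the files. DESeq2 1.42.0, other filters and factors, 2 arms alone and each library left out were the alternatives. The steps were also run on simulated counts, with the outcome not given here. The simulated arm tests held no effect of the replicate number, so they cannot decide between the fits with and without the block.

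The pairing of replicate numbers was checked by the correlation of same-numbered libraries' deviations from their arm means. It was over 0.1 for every one of 3 pairs in 697 (0.480 to 0.604), RS411 (0.137 to 0.343), RCH sh5 (0.248 to 0.635) and SEM (0.121 to 0.311), but not in RCH sh2 (-0.069 to 0.168). Reh has 2 pairs (0.584 with WT and 0.599 with EK). The test of the number itself across arms was added after the data were seen.

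The genes of the set and the lists were chosen with earlier results of these data known. Named genes are those called (up to 6 with the smallest adjusted p per comparison), the 3 with the smallest p where none was called, HIF1A, SLC2A1, LDHA, PDK1, VEGFA and BNIP3, and up to 4 genes of the wider list. Other genes, such as PFKFB4, were named after their values were seen. Left out were 6 columns of Reh values that match no sample, which hold a replicate numbered 3 of each arm in raw and normalized form. Also left out were 27 rows with names turned into dates, which held 0.214% (RS411), 0.247% (RCH) and 0.23% (SEM) of reads.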

Additional observations from a re-analysis of the deposited data

Results flagged for a closer look

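The effect of sh2 on HIF1A differed between RS411, RCH and SEM by a test of the difference itself (edgeR, interaction of line and arm, adjusted p = 0.00456). The log2 fold changes of HIF1A with sh2 were 0.04 in RS411, 0.55 in RCH and -0.28 in SEM. All 3 RCH libraries with sh2 were above NT and all 3 SEM libraries below it. The rise in RCH alone was not called (edgeR, adjusted p = 0.149). With sh5 the difference between lines in HIF1A was not called either (edgeR, adjusted p = 0.594).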

How the results depend on the processing

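In Reh with WT, leaving out 1 library moved the log2 fold change of SLC2A3 between -0.085 (without EV replicate 1) and 0.46, with -0.019 without WT replicate 2, and that of VEGFA between -0.022 (without EV replicate 1) and 0.33. With EK, that of LDHB moved between -0.011 (without EK replicate 1) and 0.45. The cause was not tested. With the replicate block, genes of the set called became 1 and 6 in Reh (WT, EK), 2 and 5 in 697, 15 and 2 in RS411 (sh2, sh5), 3 and 1 in RCH, 22 and 18 in SEM, and 6 and 4 for the difference between lines. On recovered reads with the block, 697 gave 4 and 4. DESeq2 gave 5 and 1 in RS411 and 2 for the difference between lines with sh2. Without the filter the counts were 7 and 2 in RS411, 6 in RCH with sh2, and 10 and 6 for the difference between lines. Leaving out 1 library gave 0 to 6 in RS411 with sh2 (6 without sh2 replicate 3), 0 to 1 with sh5 (1 without sh5 replicate 2), 4 to 8 in SEM with sh2 (4 without sh2 replicate 1 or 2) and 2 to 9 with sh5 (2 without NT replicate 3 or sh5 replicate 1 or 2, 9 without sh5 replicate 3), 1 to 4 for the difference between lines with sh2 (4 without RCH NT replicate 1, 2 without RCH sh2 replicate 2) and 0 in the others. Leaving out 1 arm, genes called by replicate number were 28 to 30 in Reh, 14 to 19 in 697, 13 to 21 in RS411, 0 to 21 in RCH (0 without NT, 2 without sh5) and 17 to 25 in SEM (17 without sh2). All genes of the set called without the block stayed called with it. Over the named genes, 351 values kept direction and side of the threshold, 23 newly passed, 19 no longer passed and 4 turned.

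Counts of all genes called were 35 and 34 in Reh, 31 and 28 in 697, 286 and 82 in RS411, 239 and 4 in RCH, 4760 and 3623 in SEM, and 1639 and 424 for the difference between lines. With the block they were 629, 1027, 176, 161, 2495, 929, 1623, 46, 6455, 5591, 3223 and 1521 in that order. DESeq2 gave 129, 207, 954, 307, 1051, 95, 2823 and 886 where it moved the count by over 1.5 times, in Reh, RS411, RCH and between lines. Without the filter 237, 329, 1281, 578, 1937, 199, 3172 and 1108 were called in those comparisons. With 2 arms alone 8 and 7 were called in Reh, 9 in 697 with EK, and 66 and 197 in RS411. A minimum mean of 50 gave 18 and 17 in 697, and recovered reads with the block 205 and 189. Leaving out 1 library, counts of all genes ran from 11 to 1560 in RS411 with sh2 and 5 to 76 with sh5. In SEM they ran from 3915 to 4832 with sh2 and 2648 to 3899 with sh5. For the difference between lines with sh2 the range was 1064 to 3865. Leaving out 1 arm, all genes called by replicate number were 3061 to 4981 in Reh and 1437 to 6066 in 697. They were 1003 to 3128 in RS411, 1 to 3643 in RCH and 294 to 1921 in SEM.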
